A study of Rattus with 6 samples.

Results

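The immediate early stress transcription factors Fos, Jun, Junb, Egr1, Atf3 and Myc were followed in RNA from isolated rat ventricular cardiomyocytes, the contracting muscle cells of the lower heart chambers. The group was defined by gene, as 6 Ensembl identifiers paired with these symbols, by a rule that holds no threshold on a measured value. Of the 6 genes, 5 were analysed among the 23092 genes counted, and all 5 passed the filter on low counts. Junb (ENSRNOG00000042838), another JUN protein of the AP-1 complex, was not analysed here, and nothing is said about its level.

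The labels describe wild-type male Wistar rats aged 8 weeks, and 3 libraries from each of 2 groups were used. Hypergravity rats were held at 4 g for 14 days, 8 h per day, in a centrifuge, and control rats had no hypergravity. Whether each library came from a separate rat is not given in the sources used here, so p-values measure the spread between these libraries only. RNA was taken in bulk, where fewer cells of a type and less RNA per cell cannot be told apart, and the cardiomyocyte identity was not checked against marker genes here, because the other identifiers are not paired with names.

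Immediate early genes are transcribed within minutes of a stimulus without any need for new protein, and their RNA is short-lived, so their level reports on the recent past of a cell. In heart muscle they are known to respond to stretch, pressure load, catecholamines and ischaemia. FOS and JUN proteins pair to form AP-1, ATF3 is a stress-induced partner of JUN proteins, EGR1 is a zinc finger factor switched on through MAP kinases and serum response factor, and MYC acts with MAX on growth genes. The same genes are also known to respond to the handling and enzymatic digestion of tissue.

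None of the 5 measured genes passed the threshold of 0.05 on the adjusted p-value between hypergravity and control (edgeR, 11905 genes tested). This count is read against a background in which 4 genes, 0.0336% of those tested, were called. DESeq2 also called 0 of the 5, where it called 3.04% of the genes to which it gave an adjusted p-value. At an unadjusted p-value under 0.05, edgeR again counted 0 of the 5 genes, against 13.6% of all genes tested. Fos and Atf3 had lower means after hypergravity, Jun and Egr1 had higher means, and Myc had the largest fitted difference of the 5 together with the widest interval.

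Counts for the 4 genes other than Myc ran from 1946 to 14609 per library, so counting error was small, though some libraries lay closer together than it allows to tell apart. The mean counting error (coefficient of variation expected from the counts alone) was 1.37% for Fos, 1.39% for Jun, 1.43% for Egr1 and 1.73% for Atf3. For Myc, with 17 to 135 counts, it was 16.3%. Levels are given below as CPM, counts per 1000000 scaled by the trimmed mean of M values (TMM), which sets the typical log ratio between libraries near 0. No gene lengths of the files' build were used, so levels are compared between libraries and not between genes.

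Fos (ENSRNOG00000008015), the inducible subunit of AP-1, had 180.9, 185.2 and 215.2 CPM in control libraries 1, 2 and 3. After hypergravity it had 160.5, 188.0 and 141.1 CPM in libraries 1, 2 and 3. Hypergravity library 2 lay above control libraries 1 and 2, so the groups overlapped, while the other 2 hypergravity libraries lay below every control library. The means were 163.2 ± 23.5 CPM after hypergravity and 193.8 ± 18.7 CPM in control (SD, n = 3 each). The log2 fold change of Fos was -0.25 (standard error 0.18), with a 95% interval of the fold from 0.634 to 1.12 (adjusted p = 0.569, edgeR).

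Jun (ENSRNOG00000026293), the subunit that can pair with itself as well as with FOS proteins, was the only one of the 5 whose groups did not overlap in CPM. Control libraries 1, 2 and 3 had 154.8, 158.8 and 169.9 CPM of Jun. Hypergravity libraries 1, 2 and 3 had 182.5, 211.1 and 174.6 CPM, each above the highest control library. The gap was narrow, from 169.9 CPM in control library 3 to 174.6 CPM in hypergravity library 3, and the exact 95% Poisson intervals of these libraries (165.8 to 174.0 and 168.8 to 180.5 CPM) overlapped. The intervals of hypergravity library 1 (178.5 to 186.5 CPM) and hypergravity library 2 (207.6 to 214.5 CPM) lay above those of every control library, so only the gap between the 2 closest libraries was within counting error. Groups that do not overlap were found for 21.8% of all genes tested, so 1 of 5 is near the background. The mean of Jun was 189.4 ± 19.2 CPM after hypergravity and 161.2 ± 7.82 CPM in control (SD, n = 3 each). Its log2 fold change was 0.23 (standard error 0.16), with a 95% interval of the fold from 0.909 to 1.52 (adjusted p = 0.551, edgeR).

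Atf3 (ENSRNOG00000003745), a factor known to be induced by many forms of cell stress and to bind DNA together with JUN proteins, had 100.3, 136.0 and 122.9 CPM in control libraries 1, 2 and 3. The hypergravity libraries had 106.2, 95.9 and 98.9 CPM. Control library 1 lay inside the hypergravity range, and the other 2 control libraries lay above it. The means were 100.4 ± 5.31 CPM after hypergravity and 119.7 ± 18.0 CPM in control (SD, n = 3 each). The log2 fold change was -0.25 (standard error 0.17), and the 95% interval of the fold ran from 0.638 to 1.10 (adjusted p = 0.535, edgeR). In the RefSeq gene table, made on another assembly (GRCr8), the span of Atf3 overlaps that of 1 other gene, Garin4, and those of the other members overlap none. Whether the counting used strand is not given in the sources used here, so reads of overlapping genes may not be told apart.

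**Figure D1:**
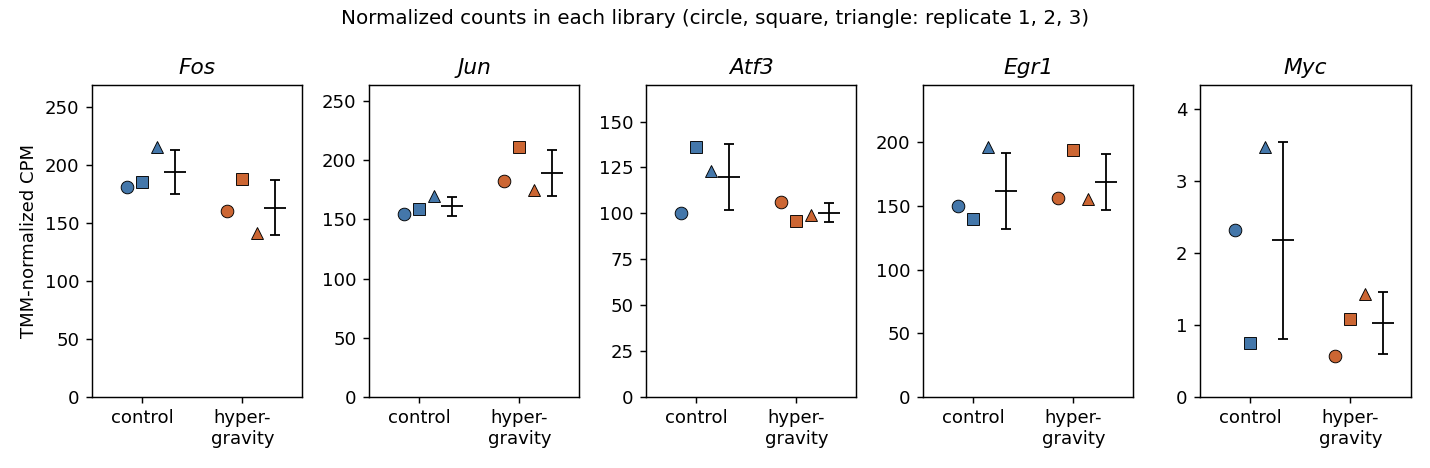
TMM-normalized CPM (vertical axes, from 0) of the 5 measured genes in each control (blue) and hypergravity (orange) library, with the mean and SD of each group beside the points. Jun is separated by a narrow gap between the closest libraries (169.9 against 174.6 CPM), while the groups overlap for Fos, Atf3, Egr1 and Myc.

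Egr1 (ENSRNOG00000019422), the zinc finger factor, had 150.1, 139.9 and 196.2 CPM in control libraries 1, 2 and 3 and 156.1, 194.4 and 155.8 CPM in hypergravity libraries 1, 2 and 3. The highest library of each group was close to the other, at 196.2 and 194.4 CPM, and the remaining 4 libraries lay between 139.9 and 156.1 CPM. The means of 168.8 ± 22.2 CPM after hypergravity and 162.1 ± 30.0 CPM in control (SD, n = 3 each) gave a log2 fold change of 0.06 (standard error 0.20). The 95% interval of the Egr1 fold ran from 0.762 to 1.42 (adjusted p = 0.924, edgeR). The sign of the Egr1 difference turned when hypergravity library 2 (log2 fold change -0.05) or control library 2 (-0.02) was left out.

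Myc (ENSRNOG00000004500), known as a driver of cell growth, was covered by few reads. It had 47, 17 and 135 counts in control libraries 1, 2 and 3, which are 2.31, 0.745 and 3.47 CPM. In hypergravity libraries 1, 2 and 3 it had 25, 75 and 28 counts, or 0.563, 1.08 and 1.42 CPM. Control libraries 1 and 3 lay above every hypergravity library, whereas control library 2 lay between hypergravity libraries 1 and 2. Exact 95% Poisson intervals, which cover counting error only, ran from 0.434 to 1.19 CPM in control library 2 and from 2.91 to 4.10 CPM in control library 3. The means were 1.02 ± 0.433 CPM after hypergravity and 2.18 ± 1.37 CPM in control (SD, n = 3 each). The log2 fold change of Myc was -1.12 (standard error 0.56), and the 95% interval of the fold, from 0.188 to 1.12, includes no change (adjusted p = 0.421, edgeR). Single control libraries moved this value: it was -1.51 without control library 2 and -0.59 without control library 3, with adjusted p-values of 0.286 and 0.761 (edgeR). The 95% interval of the fold without control library 2, from 0.177 to 0.694, lay below no change (unadjusted p-value of 0.00771), so whether the interval includes no change rests on this library.

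**Figure D2:**
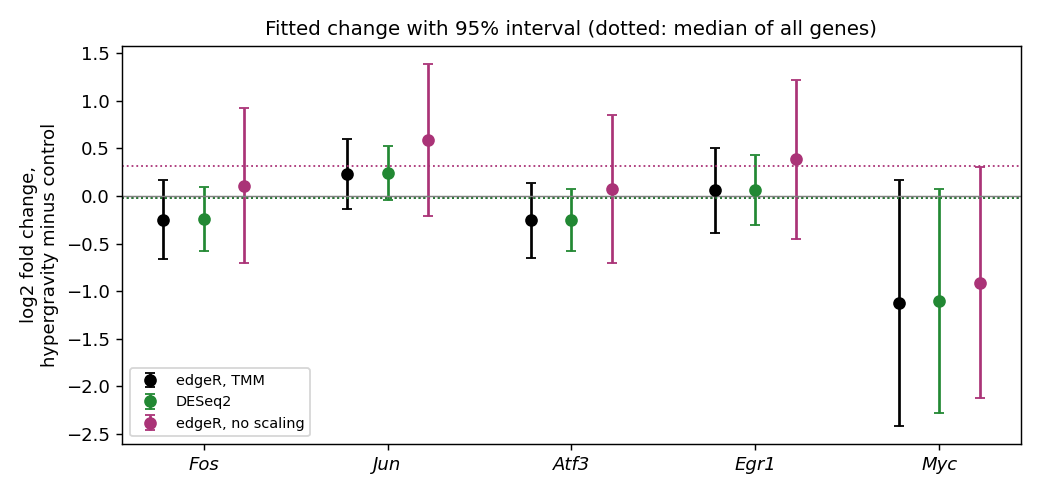
Log2 fold change, hypergravity minus control, of the 5 genes with its 95% interval (bars) from edgeR with TMM, DESeq2 and edgeR without scaling beyond library size; dotted lines mark the median of all genes in each fit. Every interval includes 0; without that scaling the median of all genes moves to 0.32, and the values of Fos and Atf3 turn from negative to positive.

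The libraries differed in composition, which bears on how each level is scaled. Totals on genes ran from 24440690 to 45497422 counts, the 10 most abundant genes took from 52.5% to 73.4% of them, and TMM factors ran from 0.774 to 1.52. The share of listed alignments that fell outside exons was 4.20 ± 0.179% after hypergravity and 3.08 ± 0.201% in control (SD, n = 3 each), without overlap, and their part in the values of these genes was not tested. Without scaling beyond library size, hypergravity library 2 and control library 3, which had the largest TMM factors (1.52 and 1.16), were the 2 highest libraries for Fos, Egr1 and Atf3. On that scale Fos had 286.0 CPM in hypergravity library 2 and 113.6 CPM in hypergravity library 3, a ratio of 2.52, against 1.33 with TMM. The log2 fold changes became 0.11 for Fos, 0.59 for Jun, 0.07 for Atf3, 0.39 for Egr1 and -0.91 for Myc, beside a median over all genes of 0.32 in place of -0.02. Fos, Atf3 and Myc thus lay below the median of all genes under both scalings, Jun and Egr1 lay above it, and none of the 5 was called. The groups overlapped for all 5 genes on the library size scale, Jun included.

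The spread between libraries of a group was measured next, as the SD of log2 CPM pooled over both groups. Over the 11905 genes tested its median was 0.27, with a middle range from 0.19 to 0.43. Jun had an SD of 0.11, and 5.83% of the genes had a smaller one. Atf3 and Fos, at 0.17 and 0.18, had 18.5% and 21.0% of the genes below them. Egr1, at 0.22, had 36.2% below it. All 4 of these factors were thus less variable between the libraries of a group than the median gene with TMM. The genes compared were not matched for abundance, and 4627 of them had a mean of at least 10 CPM. These 4 factors lay far above that level and Myc below it, and the part of abundance in these shares was not tested. Myc, at 0.95, was more variable than 90.8% of the genes. This order rests partly on the scaling: on the library size scale, where the median was 0.49, the SD was 0.43 for Atf3, 0.50 for Jun, 0.57 for Fos and 0.60 for Egr1, and only Atf3 was below the median.

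**Figure D3:**
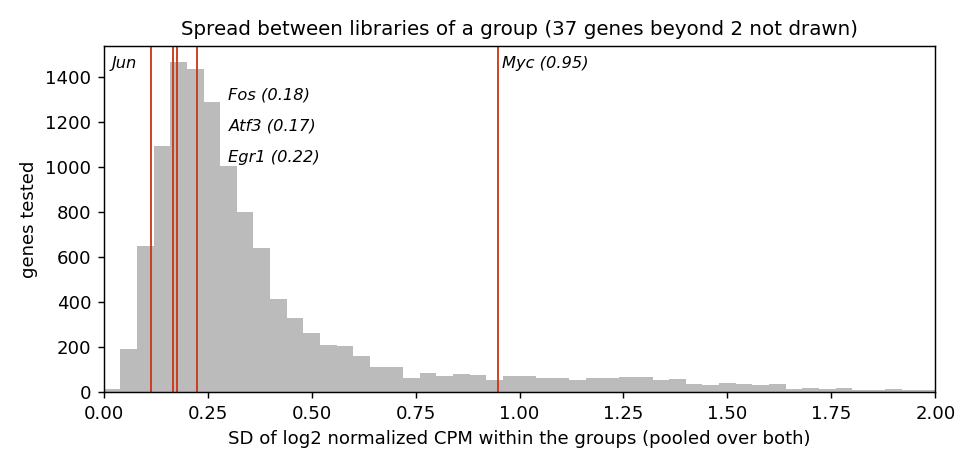
Histogram of the SD of log2 TMM-normalized CPM within the groups (horizontal axis) over 11905 genes (vertical axis, number of genes), with 37 genes beyond 2 not drawn and lines at the 5 measured genes. Jun (0.11), Atf3 (0.17), Fos (0.18) and Egr1 (0.22) lie below the median of 0.27, and Myc (0.95) lies in the upper tail.

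The balance between the RNAs of the factors was compared as the ratio of their counts within a library. No scaling between libraries can change this quantity. Gene length also enters it, so only its difference between libraries is read. All 10 pairs of the 5 genes were taken, after the values of single genes had been seen. The Fos to Jun ratio, which covers RNA and not the AP-1 proteins, was 1.17, 1.17 and 1.27 in control libraries 1, 2 and 3. After hypergravity the ratio was 0.879, 0.890 and 0.808. Every control library thus had a higher Fos to Jun ratio than every hypergravity library. The log2 difference was -0.48, or 0.716 of the control ratio, with SDs of 0.08 and 0.07 (n = 3 each) on the log2 scale (exact permutation test, two-sided, p = 0.1 and no smaller value possible with 3 against 3, or 0.333 after Benjamini-Hochberg adjustment over the 10 pairs).

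Groups also did not overlap for the Fos to Egr1 ratio and the Jun to Atf3 ratio. The Fos to Egr1 ratio was 1.20, 1.32 and 1.10 in control libraries 1, 2 and 3 and 1.03, 0.967 and 0.906 after hypergravity, a log2 difference of -0.32. The Jun to Atf3 ratio was 1.54, 1.17 and 1.38 in control and 1.72, 2.20 and 1.77 after hypergravity, a log2 difference of 0.47. Both have the same exact permutation p = 0.1 (adjusted 0.333), which this design cannot go below. Among the 70359453 pairs of tested genes with counts in every library, 20.4% had ratios that did not overlap between the groups, and among pairs with both means of at least 10 CPM it was 27.4%. The 3 of 10 pairs found here share their genes and are close to that background. The remaining 7 pairs overlapped, and their exact permutation p-values ran from 0.3 to 1.

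Within a group, Fos and Jun counts kept close to a fixed ratio. The pooled SD of the log2 Fos to Jun ratio within the groups was 0.07, where the median over all pairs of tested genes was 0.45, and 0.327% of those pairs had a smaller one. Among pairs with both means of at least 10 CPM, where the median SD was 0.30, 0.930% had a smaller one. For Fos to Egr1 the SD was 0.12, with 1.78% of all pairs and 4.72% of those above that level smaller. For Jun to Egr1 it was 0.14, with 3.78% and 9.48% smaller. The SDs of the Atf3 ratios were 0.20 against Jun, 0.23 against Fos and 0.30 against Egr1, with 22.4%, 31.9% and 49.7% of the pairs above that level smaller, so the Atf3 to Egr1 ratio was near the median pair. Ratios that involved Myc had SDs from 0.82 to 1.06. Fos to Jun had the smallest SD of the 10 pairs taken. The floor of 10 CPM lies far below the levels of Fos and Jun, and pairs were not matched more closely for abundance. The points of each ratio are the same 3 libraries per group, so these shares are descriptions and carry no test.

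**Figure D4:**
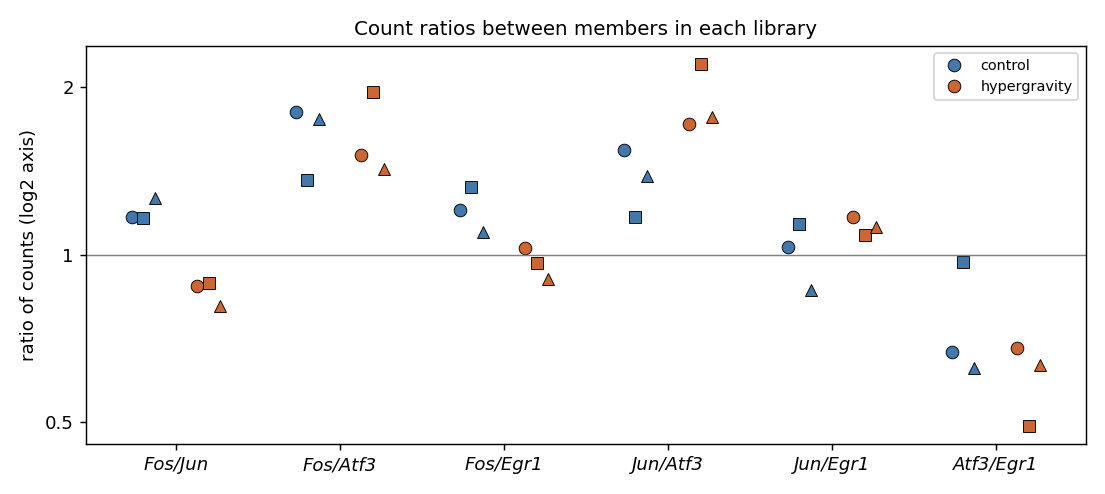
Ratio of counts within each library (vertical axis, log2 scale) for the 6 pairs of Fos, Jun, Atf3 and Egr1, with control in blue, hypergravity in orange and replicates 1, 2 and 3 as circle, square and triangle. The Fos/Jun ratio is at 1.17 to 1.27 in control and 0.808 to 0.890 after hypergravity; Fos/Egr1 and Jun/Atf3 also separate, and the other 3 pairs overlap.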

How the data were processed

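Per the labels, RNA from ventricular cardiomyocytes was poly(A)-selected and prepared with a stranded mRNA kit, and the submitters' processing notes name FastQC, Trimmomatic, HISAT2, HTSeq and the build mRatBN7.2. Counting options are not given in the sources used here. The deposited values are raw counts per Ensembl identifier, 1 table per library, and HTSeq's 5 summary lines (8.55 to 9.92% of the listed alignments) were left out. Symbols come from the definition of the gene group. The members and lists were chosen with earlier results of these data known.

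Counts were fitted with edgeR (version 4.0.16, R 4.3.3) (filterByExpr, TMM, quasi-likelihood test), and p-values were adjusted over 11905 genes by the Benjamini-Hochberg method, with 0.05 as the threshold. Dividing each log2 fold change by the root of its F statistic gave the standard error. Alternatives used DESeq2 (1.42.0) and limma-voom (3.58.1), no scaling, other filters, a replicate block and libraries left out. Exact permutation tests used scipy (1.17.1). Tested on simulated counts with 200 genes changed by 2 (log2), edgeR recovered 193 with 9 false calls (12006 genes). Each pair of libraries differed beyond sampling noise. Lists of other pathway and marker genes, the named genes to be drawn from them, and levels per length were not analysed here, because identifiers are paired with neither names nor lengths.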

Additional observations from a re-analysis of the deposited data

How the results depend on the processing

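The count of 0 measured genes called held in all 13 alternatives run (DESeq2, limma-voom, no scaling beyond library size, 2 other filters, the 10 most abundant genes left out, a replicate block and each of 6 libraries left out), with adjusted p-values from 0.286 to 0.998. Jun (log2 fold change from 0.16 to 0.59) and Myc (-1.51 to -0.59) kept their direction in each. Without scaling beyond library size Fos was at 0.11 and Atf3 at 0.074, opposite in sign to the reported values, as the scaling moved the median of all genes; both kept their direction in the other 12. Egr1 ran from -0.045 to 0.22 with libraries left out. The number of all genes called was 326 with DESeq2, 15 with no filter, 1 without scaling, 0 without the 10 most abundant genes, 0 with a replicate block and 0 to 1 with each library left out; the cause was not tested. Replicate numbers showed no pairing of the libraries (correlations of deviations -0.406, -0.178 and 0.0623, with 0 of 6 libraries correlated best with their own number). With 3 libraries per group, this check cannot exclude a pairing. Without scaling, the spread within groups was 0.57 for Fos, 0.50 for Jun, 0.43 for Atf3 and 0.60 for Egr1. With each library left out, an alternative chosen after seeing the data, the log2 difference ran from -0.51 to -0.44 for Fos/Jun, -0.39 to -0.25 for Fos/Egr1 and 0.36 to 0.57 for Jun/Atf3. Myc, at 17 to 135 counts per library, had a counting error of 16.3%. The alternatives for gene lists and lengths were not run.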
